A study of Homo sapiens with 13 samples.

Results

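The regions described here are 307 sites of the MDA-MB-231 genome where the coactivators YAP and TAZ were both listed as bound while neither TEAD4 nor JUN was. They were selected on the presence and absence of peaks in the lists deposited for the 4 factors. Peaks that overlapped by 1 bp or more were merged, and a region was kept when it held at least 1 YAP and 1 TAZ peak and no peak of the other 2 lists. The 307 regions are 1.09% of the 28100 merged regions of all lists and 4.36% of the 7048 that held YAP together with TAZ (95% interval 3.89 to 4.86, exact Clopper-Pearson, for counting error only). The share depends on list length: it was 7.91% with the stronger 50% of each list, and 11.7% (750 regions) with the 7709 strongest peaks of each. Sequence and gene annotation of build hg19 were not used here, and each region is given by its hg19 position.

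MDA-MB-231 is an established line of human breast cancer cells, grown in DMEM:F12 with 10% FBS and with no treatment named. Chromatin was immunoprecipitated and sequenced with antibodies to YAP, TAZ (the product of WWTR1), TEAD4 and JUN, 2 libraries each, beside 2 rabbit IgG and 3 mouse IgG control libraries. The antibodies were clone EP1674Y for YAP, an antibody to WWTR1 for TAZ and TEF-3 (N-G2) for TEAD4, and the submitters call the replicates independent. YAP and TAZ were called against pooled rabbit IgG and, by the raw file names, come from 1 sequencing run, while TEAD4 and JUN were called against pooled mouse IgG and come from other runs. Absence of TEAD4 or JUN therefore cannot be told apart from a difference in run, antibody or control. Each factor has 1 deposited list for both of its libraries, so the values below are the authors' values per peak, they have no replicate spread, and read depth is unknown here. JUN peaks are named with the replicate tag Rep13, those of the other lists with Rep0, and what these tags mean is not stated. TAZ peaks are also named with a tag that holds both YAP and TAZ, whose meaning is not stated. How far the YAP and TAZ lists are independent is therefore unknown here, which bears on membership and on the summit distances. Because membership was defined by these same lists, every value of the lists at these regions is given as a description with no test.

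YAP and TAZ are the paralogous coactivators held back by the Hippo kinases. They have no DNA-binding domain of their own and reach DNA through partner proteins, of which the TEAD family is the best known. TEAD4 is 1 member of that family. JUN is a subunit of AP-1, a dimeric factor that often binds the same enhancers as TEAD proteins. The other TEAD proteins and AP-1 subunits were not profiled in these libraries, so the regions lack a listed peak of TEAD4 and JUN and nothing more can be said of their partners.

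Over all merged regions, 27.1% held a YAP peak, 34.5% a TAZ peak, 29.5% a TEAD4 peak and 87.3% a JUN peak. Of the regions with YAP and TAZ, 22.1% lacked TEAD4 and 21.5% lacked JUN. The regions lacking both were the smallest class, with 307 members, beside 1209 regions with TEAD4 and no JUN, 1248 with JUN and no TEAD4, and 4284 with both. These shares are set by the rule and nothing is read from them.

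YAP and TAZ enrichment was low at sites without TEAD4 and JUN. The enrichment of YAP over IgG at the 307 regions ran from 3.71-fold to 13.3-fold with a median of 6.51, and that of TAZ from 3.81-fold to 14.1-fold with a median of 6.28. The other 6741 regions with YAP and TAZ had medians of 7.66 for YAP and 7.98 for TAZ, which gives ratios of 0.851 for YAP and 0.788 for TAZ. The ranges overlapped widely, but the upper end of the other regions reached 38.2-fold for YAP and 35.8-fold for TAZ. Those highest values came from regions with TEAD4. The 1248 regions with JUN and no TEAD4 reached only 16.6-fold for YAP and 15.2-fold for TAZ.

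**Figure D1:**
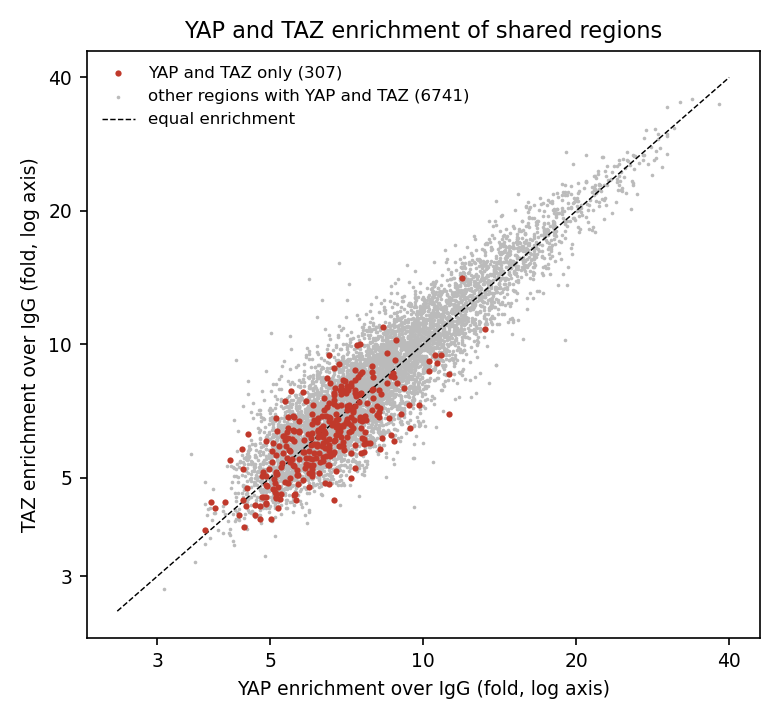
Each point is a region with YAP and TAZ, placed by the authors' fold enrichment of YAP (x, log axis) and TAZ (y, log axis) over IgG, with the 307 regions lacking TEAD4 and JUN in red and the other 6741 in grey. The red points stay at or below 13.3-fold for YAP and 14.1-fold for TAZ, and the grey points extend to 38.2-fold and 35.8-fold. Among the grey points, regions with JUN and no TEAD4 reach 16.6-fold and 15.2-fold.

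The YAP enrichment of the 307 regions was close to that of regions with JUN and no TEAD4, and below that of regions with TEAD4. Its median was 6.51 (6.34 to 6.67, 95% interval of the median from order statistics) at the 307 regions. It was 7.92 (7.71 to 8.10) with TEAD4 and no JUN, 6.39 (6.28 to 6.49) with JUN and no TEAD4, and 8.24 (8.13 to 8.36) with both. TAZ enrichment had a median of 6.28 (6.11 to 6.46) at the 307 regions, against 7.87 with TEAD4, 6.48 (6.35 to 6.58) with JUN and 8.64 with both. For both coactivators the higher medians were those of the classes with TEAD4, and a JUN peak without TEAD4 went with a YAP median no higher than that of the 307 regions. This holds for YAP enrichment and not for TAZ by p. The median TAZ −log10 p was 31.6 (30.5 to 33.5) at the 307 regions and 36.3 (35.2 to 36.9) with JUN and no TEAD4.

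By p, 0 of the 307 regions held a peak from the strongest 10% of the YAP list, and 0 one from the strongest 10% of the TAZ list. Such peaks were also rare with JUN and no TEAD4, at 3 of 1248 regions for either list. With TEAD4 and no JUN they were found in 133 of 1209 regions for YAP and 127 for TAZ. With both factors it was 632 of 4284 for YAP and 677 for TAZ. The near absence of the strongest peaks was thus shared by the 2 classes without TEAD4. The strongest of the 307 regions ranked 1189 of the 7709 YAP peaks and 1675 of the 9798 TAZ peaks. In the weaker 50% of both lists lay 229 regions (74.6%), in the stronger 50% of both lay 28 (9.12%), and the remaining 50 were in the stronger 50% of 1 list. In the weakest 10% of the YAP list lay 22.5% of the 307 regions, against 5.87% of regions with TEAD4 and no JUN, 17.5% with JUN and no TEAD4, and 3.85% with both. For the weakest 10% of the TAZ list the shares were 13.7%, 3.06%, 8.25% and 1.56% in the same order. The stronger 50% of the TAZ list held 19.2% of the 307 regions and 35.7% of those with JUN and no TEAD4.

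Dividing each list into 10 equal parts by p showed how the share of regions without both factors changed with strength. In the strongest 10% of YAP peaks, 0 of 768 regions with YAP and TAZ lacked both, which allows a share of up to 0.391% by 3 counts of the total and up to 0.479% by the exact interval. The share was 3.19% in part 5 (2.06 to 4.71) and 13.2% in the weakest (69 of 523, 10.4 to 16.4). By TAZ strength it was 0 of 807 in the strongest part, which allows up to 0.372% by 3 counts and up to 0.456% by the exact interval, and 16.9% (42 of 249, 12.4 to 22.1) in the weakest.

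The share without TEAD4 differed more along the list than the share without JUN. Regions without a TEAD4 peak made up 0.391% of the strongest part by YAP and 54.9% of the weakest. Regions without JUN made up 17.3% of the strongest and 26.8% of the weakest. Where TEAD4 was listed, its own strength was lower beside weaker YAP, with a median −log10 p of 161 in the strongest part by YAP and 38.8 in the weakest, while the weakest TEAD4 peak listed had 24.7. The JUN median changed less, at 186 in the strongest and 133 in the weakest, against a lowest listed value of 54.4.

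In the weakest part by YAP, JUN was absent from 24% of the 287 regions without TEAD4 and from 30.1% of the 236 with it. The rule used both absences, so this is a description and the difference was not tested.

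**Figure D2:**
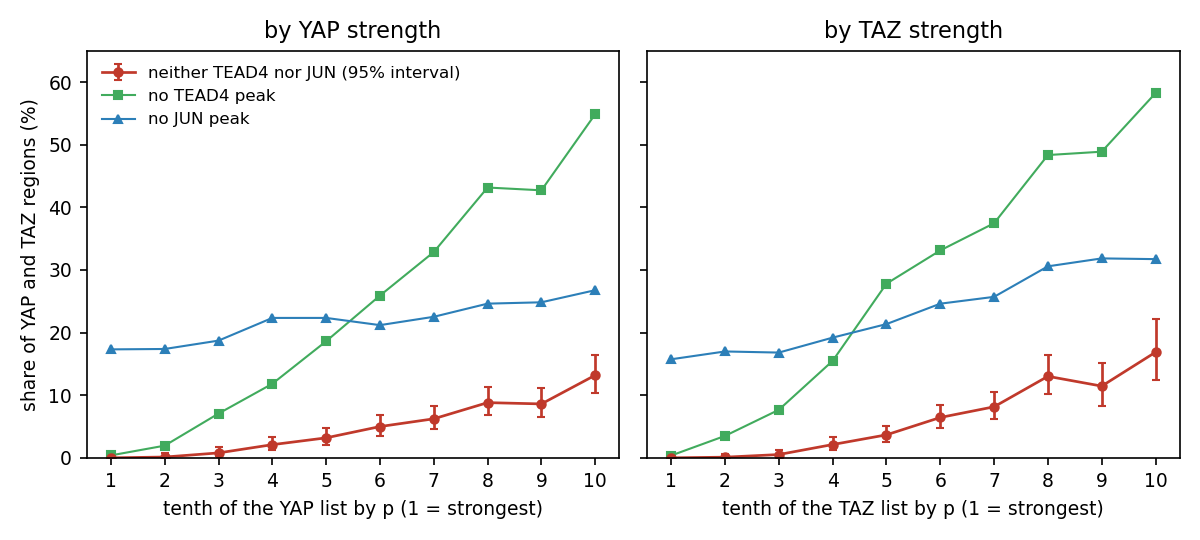
For 10 equal parts of the YAP list (left) or TAZ list (right) by p, strongest first, the lines give the percentage of regions with YAP and TAZ that lacked both TEAD4 and JUN (red, exact 95% interval), lacked TEAD4 (green) or lacked JUN (blue). The red line ends at 13.2% and 16.9%, the green line climbs most steeply, to 54.9% and 58.2%, and the blue line ends at 26.8% and 31.7%.

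YAP peaks at the 307 regions were also narrow. Their median width was 426 bp (413 to 444), against 510 bp with TEAD4 and no JUN, 523 bp with JUN and no TEAD4, and 606 bp with both. The rule drops a region at 1 bp of overlap with TEAD4 or JUN, so wider YAP or TAZ peaks are more easily dropped. The part of this in the widths was not tested, here or in the subset below. The comparison was repeated over regions whose YAP and TAZ enrichment both lay between the quartiles of the 307 regions (5.57 to 7.30 for YAP, 5.46 to 7.23 for TAZ), a subset chosen after the values had been seen. The median was then 405 bp (391 to 430) over 95 regions without TEAD4 and JUN. It was 442.5 bp (430 to 465) over 224 with TEAD4, 507 bp (490 to 528) over 401 with JUN, and 536 bp (517 to 550) over 659 with both. The order of the classes was kept for YAP. Its median with TEAD4 lay nearer to that of the regions without both than its median with JUN did. TAZ peaks of this subset had median widths of 450 bp (394 to 477) without both and 462.5 bp (436 to 494) with TEAD4. These intervals overlap. The TAZ median was 571 bp with JUN and 579 bp with both. The subset was not level in p. The median YAP −log10 p was 29.9 without both, 33.4 with TEAD4, 31.3 with JUN and 36.5 with both.

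**Figure D3:**
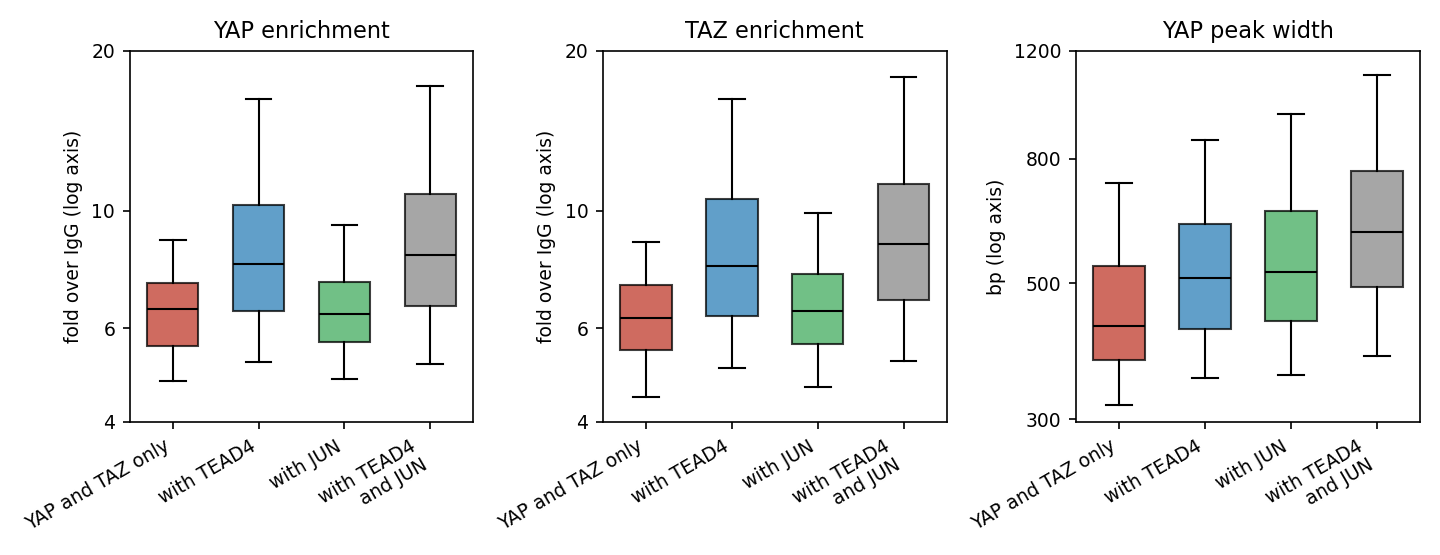
Boxes give the median and quartiles, and whiskers the 5th and 95th percentiles, of YAP enrichment, TAZ enrichment and YAP peak width (all on log axes) for the 307 regions with YAP and TAZ only, 1209 with TEAD4, 1248 with JUN and 4284 with both. YAP medians are 6.51 without both factors and 6.39 with JUN, and the first box is the lowest for width (median 426 bp).

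YAP and TAZ summits lay close together at these sites, as they did at the other regions with YAP and TAZ. The region held exactly 1 peak of each in 306 of 307 cases, and YAP and TAZ peaks shared a median of 82.2% of their joint span. Their summits lay a median of 18 bp apart (16 to 21), against 14 bp (12 to 14) with TEAD4 and no JUN, 22 bp (20 to 24) with JUN and no TEAD4, and 16 bp (16 to 17) with both. Summits were within 50 bp in 272 regions (88.6%), within 100 bp in 303 (98.7%) and on the same base in 9. In the 4 exceptions they were more than 100 bp apart, up to 309 bp on chromosome 6 (65422210 to 65423033), a region named for this after its value was seen. Of the other 6741 regions with YAP and TAZ, 6613 held exactly 1 peak of each, and their median shared span was 82.9%. Summits of those regions were within 50 bp in 89.1% and within 100 bp in 97.9%.

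Across the 307 regions, YAP and TAZ enrichment had a Spearman rank correlation of 0.72 (n = 307 regions). The same measure was 0.88 with TEAD4 and no JUN, 0.70 with JUN and no TEAD4, and 0.90 with both. These regions share libraries, IgG controls and a sequencing run, TAZ peaks are named with a tag that holds both proteins, whose meaning is not stated, and the 307 regions span a narrower range of enrichment, so the values are descriptions. YAP was the more enriched of the pair in 182 of the 307 regions (59.3%), against 49.96% with TEAD4 and no JUN, 47.7% with JUN and no TEAD4, and 39.5% with both. The median ratio of YAP to TAZ enrichment was 1.04 (1.01 to 1.06) at the 307 regions and 0.963 at regions with both factors. Near the bottom of the lists the YAP list asks for more, since its weakest peak has a −log10 p of 24.3 and that of the TAZ list 22.0, and the part of this in the ratio was not tested.

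Ranked by the mean of their YAP and TAZ enrichment ranks, the 10 best members began with a site on chromosome 22. That site (50731838 to 50732640) had 11.9-fold YAP and the highest TAZ enrichment of all, 14.1-fold. Its summits were 17 bp apart, its nearest JUN peak was 10082 bp away and its nearest TEAD4 peak 385470 bp away. Next came a site on chromosome 1 (34100435 to 34100932) with the highest YAP enrichment, 13.3-fold, and 10.8-fold TAZ, its nearest JUN peak at 73745 bp and its nearest TEAD4 peak at 534892 bp. Both strong sites were over 100 kb from any listed TEAD4 peak. Such distances were common, since only 176 of the 307 regions (57.3%) had a TEAD4 peak within 100 kb.

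The rest of the 10 were 8.80-fold to 11.3-fold for YAP and 8.58-fold to 10.2-fold for TAZ. On chromosome 2 lay 4 of them (119936726 to 119937257, 119955709 to 119956657, 129131676 to 129132166 and 134537635 to 134538210). Single sites lay on chromosome 19 (956623 to 957296), on chromosome 10 (88105650 to 88106074), on chromosome 3 (155109168 to 155109807) and on chromosome 13 (44147312 to 44148148). The site on chromosome 10 was the most remote of the 10 from TEAD4, at 1289259 bp, and that at 134537635 on chromosome 2 was the nearest to JUN, at 2077 bp.

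In windows of 100 kb, 298 contained 1 member, 3 contained 2, and 1 contained 3. The densest window, on chromosome 2 (119900001 to 120000000), held 4 regions with YAP and TAZ, 3 of them without TEAD4 and JUN, among 6 regions of any kind. Among them are the sites at 119936726 and 119955709 from the 10 best, 18452 bp apart, with YAP enrichments of 10.8-fold and 10.6-fold. The last (119988744 to 119989248) followed after 32087 bp, with 7.17-fold YAP and 7.22-fold TAZ, a JUN peak 229 bp away and a TEAD4 peak 1679 bp away.

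By chromosome the 307 regions made up between 1.61% and 6.98% of the regions with YAP and TAZ. Chromosome 2 held the most, 37 of 538 (6.88%, 4.89 to 9.36), and chromosome 5 held 8 of 456 (1.75%, 0.760 to 3.43). The interval of every other chromosome included the 4.36% found overall.

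The rule asks only for 1 bp of overlap, so regions close to its edge were examined. The 3 members nearest to a TEAD4 peak were 59 bp from it on chromosome 3 (159450210 to 159451036), 119 bp on chromosome 19 (17447928 to 17448562) and 164 bp on chromosome 3 (63711327 to 63711744). The 3 nearest to a JUN peak were 29 bp from it on chromosome 4 (41146717 to 41147673), 163 bp on chromosome 4 (84771575 to 84772070) and 175 bp on chromosome 11 (66095407 to 66096247). Their YAP enrichment ran from 3.81-fold to 7.76-fold.

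Just outside the rule, the shortest overlaps were long in all but 1 case. The 3 shortest overlaps of a TEAD4 peak with a YAP or TAZ peak, in regions without JUN, were 279, 280 and 281 bp (57405692 to 57406032 on chromosome 11, 49358416 to 49358821 on chromosome 20 and 163925837 to 163926269 on chromosome 3), with YAP at 6.82-fold, 5.59-fold and 8.15-fold. For JUN, in regions without TEAD4, they were 7 bp on chromosome 5 (34608781 to 34610412), 309 bp on chromosome 1 (87239370 to 87240434) and 313 bp on chromosome 6 (42688505 to 42689013). The 7-bp case, with its JUN summit 546 bp from the nearest YAP or TAZ summit, was the only overlap of 50 bp or less. Distant summits were less rare. The JUN summit lay over 200 bp from the nearest YAP or TAZ summit in 51 of 1248 regions (4.09%), and the TEAD4 summit in 3 of 1209 (0.248%). With peaks narrowed to 200 bp around their summits, 380 regions met the rule.

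The shares of the 307 regions with a listed TEAD4 or JUN peak nearby were near the background. A TEAD4 peak lay within 10 kb of 49 of the 307 regions (16%, 12 to 20.5), against 17.8% of all regions without TEAD4 and 21.8% (19.5 to 24.2) of regions with YAP, TAZ and JUN. The median distance was 79747 bp at the 307 regions and 53540.5 bp at those with JUN. A JUN peak lay within 10 kb of 106 regions (34.5%, 29.2 to 40.1), against 36.9% of all regions without JUN and 41.1% (38.3 to 43.9) of regions with YAP, TAZ and TEAD4. With the 7709 strongest peaks of each list, a JUN peak lay within 10 kb of 150 of 750 regions (20%, 17.2 to 23.0), against 18.1% of all regions without JUN. The median distance to JUN was 21843 bp at the 307 regions and 15468 bp at those with TEAD4. Both medians were longer at the 307 regions than where the other factor was listed. They were much the same at regions of YAP alone, at 80138 bp to TEAD4 and 23320 bp to JUN. At regions of TAZ alone they were 57947.5 bp and 18511.5 bp. A JUN peak lay within 100 kb of 86.6% of the 307 regions and of 85.9% of those with TEAD4.

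**Figure D4:**
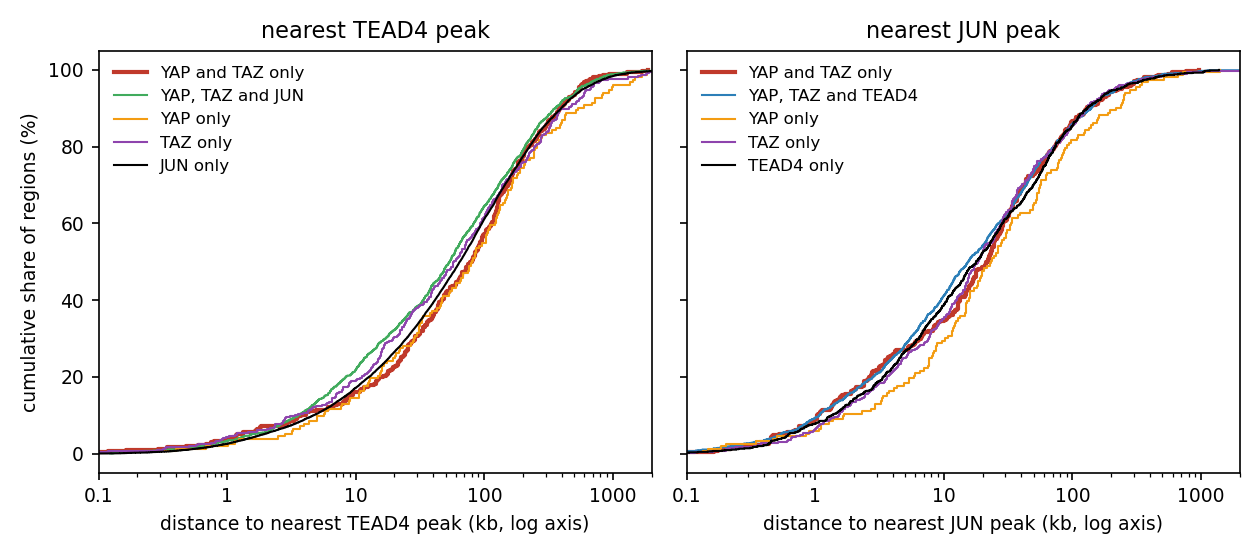
The lines give the cumulative percentage of regions (y) whose nearest TEAD4 peak (left) or JUN peak (right) lies within a distance (x, kb, log axis), for the 307 regions in bold red and for other classes without that factor. The bold red curve gives 16% of the 307 regions within 10 kb of TEAD4 and 34.5% within 10 kb of JUN.

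The nearest JUN peak belonged to a region of JUN alone for 199 of the 307 regions (64.8%) and to a region of all 4 factors for 56 (18.2%). The nearest TEAD4 peak belonged to a region of all 4 factors for 151 (49.2%). Over all merged regions, JUN alone made up 16291 of the 24530 regions with a JUN peak. Regions of all 4 factors made up 4284 of the 8289 with a TEAD4 peak. The shares at the 307 regions were near this make-up of the lists, and nothing is read from them. A region of all 4 factors lay within 100 kb of 118 of the 307 (38.4%), against 44.0% of regions with TEAD4 and no JUN and 49.6% of those with JUN and no TEAD4. The median distance to such a region was 162854 bp (126844 to 201756) at the 307 regions, 130271 bp (118358 to 149538) with TEAD4 and 101818 bp (90814 to 119192) with JUN. A region of any kind lay within 10 kb of 38.1% of the 307 regions, against 45.8% with TEAD4, 52.8% with JUN and 55.2% with both. The 3 most isolated members, on chromosome 7 (85362448 to 85362814 and 125519084 to 125519641) and chromosome 4 (67885780 to 67886183), were 596768, 551931 and 444549 bp from any other region.

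Whether TEAD4 left any trace below the listing threshold was examined through the numbers in the peak names. These ascend along each chromosome in every list and run up to 28115 for the 8406 TEAD4 peaks and 96825 for the 24554 JUN peaks. A gap in the numbers between neighbouring listed peaks was read as candidates that were called and not listed, on the assumption that every candidate was numbered. It places a candidate somewhere between 2 listed peaks and not at a region.

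Of the 303 regions with a listed TEAD4 peak on either side, 302 had at least 1 unlisted TEAD4 number in between. Those intervals are long, with a median of 502 kb, so intervals under 100 kb were taken as well. There, 39 of 40 regions had an unlisted TEAD4 number, and 1 (2.5%, 0.0633 to 13.2) had none. Among regions with JUN alone, 454 of 2310 (19.7%, 18.1 to 21.3) had none, and among regions with YAP, TAZ and JUN 3 of 219 (1.37%, 0.283 to 3.95). For TAZ alone it was 8 of 88 (9.09%, 4.01 to 17.1), and for YAP alone 0 of 22 (exact interval up to 15.4%), and both intervals overlap that of the 40 regions. The intervals around the 40 regions were longer than those around JUN alone, with medians of 66.6 kb and 52.0 kb, and held 43.0 unlisted numbers per Mb against 37.0. The only member with consecutive TEAD4 numbers on its 2 sides lay on chromosome 10 (95462250 to 95462676), with 3.90-fold YAP and 4.26-fold TAZ, and was named after its value was seen.

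For JUN the shares were close between classes. An unlisted JUN number lay between the flanking JUN peaks for 301 of 305 regions, and 4 (1.31%, 0.358 to 3.32) had none, against 1.33% of regions with YAP, TAZ and TEAD4 and 1.64% with TEAD4 alone. No member had consecutive numbers in both lists (0 of 303). With 1 such member for TEAD4 and 4 for JUN, this was almost fixed in advance and nothing is read from it.

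**Figure D5:**
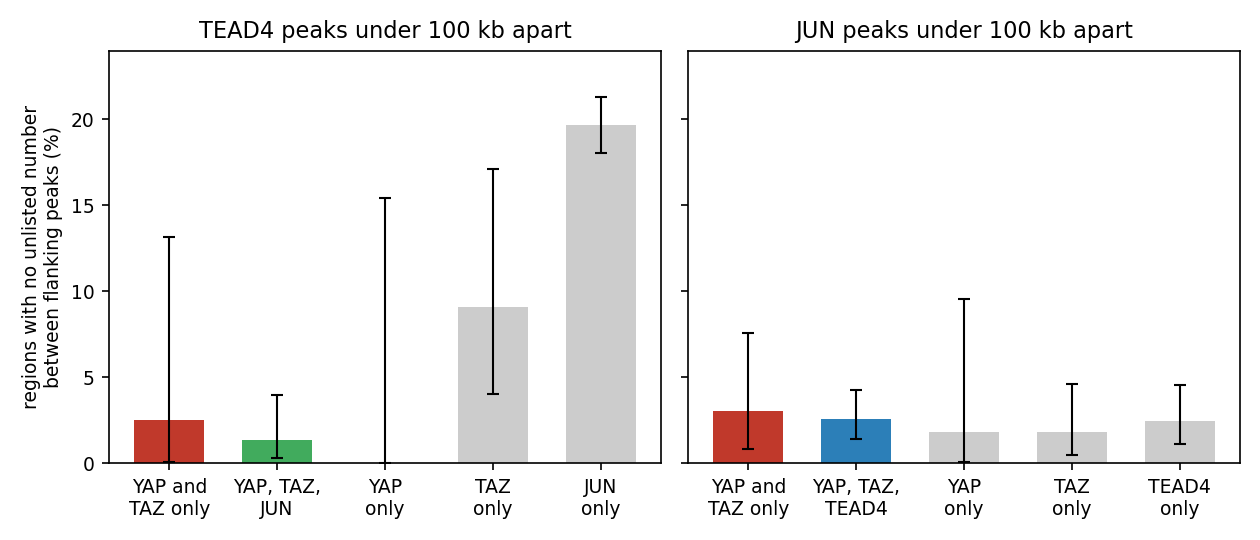
Bars give the percentage of regions with no unlisted TEAD4 number (left) or JUN number (right) between the flanking listed peaks, for flanking peaks under 100 kb apart, with exact 95% intervals. The 307 regions contribute 40 on the left (2.5%) and 132 on the right (3.03%), and JUN-only regions stand highest on the left at 19.7%.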

How the data were processed

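ChIP-seq libraries were grouped by the factor in their titles and IgG by antibody. The tools are MACS2 2.0.10, SAMtools, Bowtie 0.12.7 and CASAVA, with build hg19, per the submitters' processing notes. Peaks were called by the authors in the IDR framework, per the labels, and the lists are marked 0.01. Further filters are not stated. Each deposited peak has a fold enrichment over pooled IgG (a ratio), a −log10 p-value, a −log10 q-value, a score (10 times the −log10 p) and a summit; the scores and q-values were not used (4 columns of q-values were not mapped).

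Where a region held several peaks of a factor, the strongest by p was taken. Distances run between region and peak edges. Intervals are exact binomial, and for medians from order statistics. Merging, distances and number gaps were tested on simulated data. Regions named follow a rule: the 10 best by mean rank, the highest, the 3 nearest to each factor, the 3 just outside, the densest window and the farthest; others are said to be chosen later. The members, rule and comparisons were chosen with earlier results of these data known. Python 3.11.15, pandas 2.3.3 and scipy 1.17.1 were used.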

Additional observations from a re-analysis of the deposited data

How the results depend on the processing

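No paired analysis was possible because each factor has 1 list with no values per replicate, so no replicate could be left out either. Of 40 alternatives to 10 results, 24 left the value within its interval (counts within 1.5 times), 16 moved and 0 reversed. The number of regions was 380 with peaks narrowed to 200 bp around summits, 274 with peaks up to 1 kb apart joined, 280 with the stronger 50% of each list and 750 with lists of equal length. Their share of YAP and TAZ regions was 5.39% with narrowed peaks, 7.91% with the stronger 50% and 11.7% with equal lengths. Which regions are members depends on list length: 28 of the 307 were members with the stronger 50%, and 221 with equal lengths. Both counts were fixed in advance by the ranks of the YAP and TAZ peaks of the 307 regions. Only 28 of the 280 regions, and 221 of the 750, overlapped 1 of the 307. The others hold a TEAD4 or JUN peak in the full lists, so the similar count of 280 is mostly of other regions. The ratio of median YAP strength was 0.678 by −log10 p, 0.891 with the stronger 50% and 0.819 with equal lengths. That of TAZ was 0.612 by −log10 p and 0.857 with the stronger 50%. The rank correlation of YAP with TAZ strength across the regions was 0.49 by −log10 p. A JUN peak lay within 5 kb of 27.0%, within 20 kb of 48.5%, and, over the 750 regions of equal lengths, within 10 kb of 20%. A TEAD4 peak lay within 5 kb of 11.4% and within 20 kb of 22.5%. The share with no unlisted TEAD4 number was 2.5% for flanks under 100 kb apart. The cause of these changes was not tested. Motifs and start sites were not run, and what depth limits is unknown here.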
